A study of Mus musculus with 4 samples.

Results

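Interferon-gamma, the chemokine ligands of the receptor CXCR3, that receptor and the tryptophan-degrading enzyme Ido1 were followed in the colons of mice with dextran sulfate sodium (DSS) colitis. The 6 genes are Ifng, Cxcl9, Cxcl10, Cxcl11, Cxcr3 and Ido1. They were found on the array through the RefSeq accession of each probe's target, without version, and 5 of the 6 had a probe so matched, out of 20832 genes named in this way. Cxcl11, which the RefSeq table of the C57BL/6J assembly lists as a transcribed pseudogene, had no probe with its listed accession and was not analysed here. The array may hold probes for it under another accession, which this matching would leave out. Cxcl9 had 2 probes, of which the one with the higher mean signal was kept, and each other gene had 1.

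The samples were whole colons of wild-type (WT) and STAP-2-/- mice, both on the C57BL/6J background and 14 weeks old. STAP-2 is an adaptor protein of cytokine and Toll-like receptor signalling. All mice, controls included, had 1.75% DSS in their drinking water, which damages the lining of the colon. The labels disagree on its duration, which is 3 days in the treatment protocol and 7 days in the sample description. Each genotype has 2 RNA pools of 3 mice, numbered 1 and 2, and each pool was put on 1 single-colour Agilent array. The series' design text gives 3 mice per genotype, so the sources do not settle whether the pools of a genotype hold different mice, and the p-values below measure only the spread between these samples.

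Interferon-gamma is released mainly by activated T cells and natural killer cells. It binds a receptor that signals through the kinases JAK1 and JAK2. CXCL9, CXCL10 and CXCL11 are chemokines that its target cells then make, and they draw in T helper 1 cells, cytotoxic T cells and natural killer cells that carry CXCR3. Ido1, another target, starts the breakdown of tryptophan to kynurenine and is induced in the inflamed intestine.

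Cxcl9 and Cxcl10 lie close together on chromosome 5, with Art3 between them in the gene order. Their promoters are shown because they are neighbouring chemokine genes whose levels put the 4 arrays in the same order, as did those of Ifng. Each window runs from 250 bases before to 50 bases after the start site, 5′ to 3′ on the strand of the gene, from the RefSeq promoter table (build GRCm38.p6, minus strand). Cxcl9 lies at chr5:92328030-92328329 and Cxcl10 at chr5:92348840-92349139. Capitals mark matches, on either strand, to the core of the interferon-stimulated response element (GAAA and GAAA with any 2 bases between them) or to the kB consensus.
Cxcl9 promoter: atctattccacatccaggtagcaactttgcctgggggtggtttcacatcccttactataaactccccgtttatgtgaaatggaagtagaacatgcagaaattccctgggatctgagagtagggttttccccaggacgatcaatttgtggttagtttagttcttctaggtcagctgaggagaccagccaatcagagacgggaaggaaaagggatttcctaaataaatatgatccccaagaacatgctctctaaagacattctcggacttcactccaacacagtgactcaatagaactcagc
Cxcl10 promoter: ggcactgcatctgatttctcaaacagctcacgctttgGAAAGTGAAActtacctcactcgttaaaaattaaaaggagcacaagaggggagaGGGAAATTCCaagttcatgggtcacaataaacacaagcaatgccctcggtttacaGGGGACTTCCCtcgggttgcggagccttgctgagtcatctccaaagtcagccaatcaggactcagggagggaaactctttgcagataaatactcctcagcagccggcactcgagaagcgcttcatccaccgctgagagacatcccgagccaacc
The Cxcl10 window held 1 interferon-response core, GAAAGTGAAA, and 3 matches to the kB consensus, GGGAAATTCC, GGGGACTTCC and GGGACTTCCC, the last 2 of which overlap. Among all 32851 promoter windows of this length, 3.44% held the interferon-response core and 8.46% the kB consensus. The Cxcl9 window held neither motif, and the same was true of the Ifng and Cxcr3 windows. Promoters of 4 of the 6 genes were in the table.

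The arrays were of like brightness, with a 75th percentile of processed signal of 2134 to 2348, and between 68.4% and 70.5% of the spots that are not controls lay well above background. Levels below are log2 of the processed signal minus the log2 of that percentile, so a level of 0 is a signal at the 75th percentile of its array. All 4 arrays lay on 1 slide, where pools numbered 1 held positions 1 and 2 and pools numbered 2 held positions 3 and 4. Pool number and position therefore cannot be told apart. The median SD between repeated spots of a probe on 1 array was 0.040 to 0.045 on the log2 scale. Stap2, the targeted gene, read 2.92 and 2.98 on the WT arrays and failed the background test on both arrays of STAP-2-/- colons, WT being at least 720.9-fold higher. With 2 arrays per genotype and 15561 genes tested, the unadjusted p of Stap2 was 2.02e-05 and its limma adjusted p 0.314, so that not even the deleted gene passed the adjusted threshold of 0.05. Epcam, Vil1 and the other 5 colonic epithelium markers were well above background on all 4 arrays.

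The first comparison asked whether the genes differ between WT and STAP-2-/- colons. None of the 5 measured genes passed the test, and for each of them the values of the genotypes overlapped. Among all genes tested, 11.5% lay higher and 13.3% lower in STAP-2-/- colons with no overlap. Ido1 and Cxcr3 had the higher means in STAP-2-/- colons, Cxcl9 a slightly higher one, and Ifng and Cxcl10 slightly lower ones. For all 5 the STAP-2-/- array of pool 2 was the highest of the 4. RNA came from whole tissue, in which fewer cells of a type and less RNA per cell cannot be told apart.

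Ifng encodes interferon-gamma itself. Its level was -5.17 and -4.82 on WT 1 and WT 2, and -6.71 and -4.08 on STAP-2-/- 1 and STAP-2-/- 2. It was not well above background on STAP-2-/- 1, the lowest of the 4, and was well above background on the other 3 arrays. STAP-2-/- colons differed from WT by -0.40 (SE 0.96) on the log2 scale, with a limma adjusted p of 1. The test takes the dim array as read. Set at the lowest signal well above background on that array, WT 1 was at least 2.31-fold and STAP-2-/- 2 at least 4.93-fold higher than STAP-2-/- 1.

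Cxcl9, the ligand most tied to interferon-gamma, read -2.40 on WT 1, -1.32 on WT 2, -2.99 on STAP-2-/- 1 and 0.028 on STAP-2-/- 2. The STAP-2-/- arrays were thus both the lowest and the highest, with both WT arrays between them. The genotypes differed by 0.38 (SE 1.15). Its other probe gave -3.55 and -2.59 in WT and -4.03 and -0.98 in STAP-2-/- colons, the same order.

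Cxcl10, which type I interferons induce as well, read -0.44 on WT 1, 1.03 on WT 2, -1.12 on STAP-2-/- 1 and 1.05 on STAP-2-/- 2. The 2 arrays of pools 2 differed by 0.013, less than the spread between repeated spots. The genotypes differed by -0.33 (SE 0.95).

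Cxcr3, the shared receptor, stood at nearly 1 level on 3 arrays, -3.60 on WT 1, -3.66 on WT 2 and -3.66 on STAP-2-/- 1. STAP-2-/- 2 stood apart at -2.47, 2.18-fold above the next highest array. WT averaged -3.63 ± 0.046 and STAP-2-/- -3.06 ± 0.84 (SD, n = 2), a difference of 0.56 (SE 0.44).

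Ido1 had the widest range of the 5. It read -4.14 on WT 1, -3.66 on WT 2, -3.79 on STAP-2-/- 1 and -0.76 on STAP-2-/- 2. The last array was 7.47-fold above the next highest, and 0 of the 15561 genes tested had a larger gap between STAP-2-/- 2 and the highest of the other arrays. The granzyme B gene Gzmb had nearly the same gap, 7.46-fold. For Ido1, STAP-2-/- colons averaged 3.08-fold higher (log2 difference 1.62, SE 1.11, 95% interval -1.48 to 4.73). Leaving out STAP-2-/- 2 gave a log2 difference of 0.11 for Ido1, and leaving out STAP-2-/- 1 gave 3.14. For each of the other 4 members its sign turned when 1 array was left out.

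**Figure D1:**
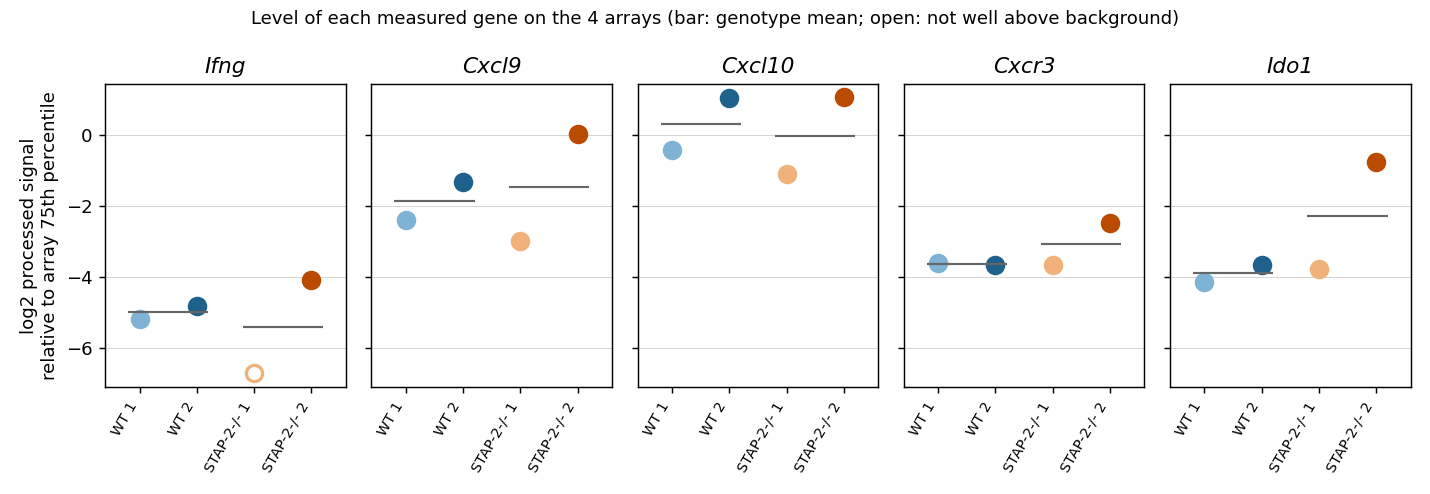
Level of Ifng, Cxcl9, Cxcl10, Cxcr3 and Ido1 on each array (y axis: log2 processed signal relative to the 75th percentile of the array; 1 point per array, short horizontal bars are the means of the 2 arrays of a genotype, the open point is not well above background). STAP-2-/- 2 is the highest point in all 5 panels, level with WT 2 for Cxcl10, and for Cxcr3 and Ido1 the other 3 arrays lie close together.

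The genotype comparison was fitted with limma over 15561 genes, with Benjamini-Hochberg adjustment. At an adjusted p of 0.05 it called 0 genes, 0% of those tested, and the adjusted p of all 5 members was 1. At an unadjusted p of 0.05 it gave 325 genes (2.09%), none of them a member. With 2 arrays per genotype the 95% intervals are wide, from -2.86 to 3.62 for Cxcl9 and from -0.68 to 1.81 for Cxcr3, so the test does not show that the genotypes are alike. With normexp background correction the genotype difference of Ifng was -0.11, and that of Cxcr3 was 0.37.

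The sign of the genotype difference depended on the pool number for 4 of the 5 members. Between the pools numbered 1, STAP-2-/- was below WT by 0.59 for Cxcl9 (log2), by 0.68 for Cxcl10 and by 0.063 for Cxcr3, and Ifng was below in the same way. Between the pools numbered 2, STAP-2-/- minus WT was 0.74 for Ifng, 1.35 for Cxcl9, 0.013 for Cxcl10 and 1.19 for Cxcr3. For Ido1 it was 0.35 between pools 1 and 2.90 between pools 2. Among all genes tested, 21.3% were likewise lower in STAP-2-/- in pools 1 and higher in pools 2. Each of these differences rests on 2 arrays and was not tested. The sign is uncertain for Cxcl10 in pools 2 and for Cxcr3 in pools 1, where the difference is small.

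The second comparison set pools 2 against pools 1, each number holding 1 WT and 1 STAP-2-/- array. The labels do not say what the number stands for. All 5 genes had the higher mean in pools 2, and for Ifng, Cxcl9, Cxcl10 and Ido1 both arrays of pools 2 lay above both arrays of pools 1. The mean difference was 4.12-fold for Cxcl9, 3.53-fold for Cxcl10 and 3.37-fold for Ido1. For Ifng it was at least 2.51-fold, with STAP-2-/- 1 set at the floor. None passed the adjusted threshold.

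Cxcl10 averaged -0.78 ± 0.48 in pools 1 and 1.04 ± 0.0094 in pools 2 (SD, n = 2), a log2 difference of 1.82 (SE 0.25, unadjusted p = 0.00132, limma adjusted p = 0.0893). Over the alternatives other than leaving out an array, its adjusted p ran from 0.0615 to 0.161. Cxcl9 averaged -2.69 ± 0.42 and -0.65 ± 0.96, a difference of 2.04 (SE 0.51, limma adjusted p = 0.136). For Cxcl10 the difference was 1.47 (2.78-fold) in WT and 2.17 (4.49-fold) in STAP-2-/- colons.

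For the other members the difference between pools was larger in STAP-2-/- than in WT colons, a contrast that was not tested. Over all genes the STAP-2-/- arrays also lay further apart, with an SD of their log2 differences of 0.655, against 0.42 between the WT arrays. The part of this spread in the member values was not tested. Cxcl9 differed by 1.07 between the WT pools and by 3.01 between the STAP-2-/- pools, 2.10- and 8.08-fold. Ido1 differed by 0.47 and 3.03, 1.39- and 8.16-fold. Cxcr3 differed by -0.066 in WT and 1.19 in STAP-2-/- colons. Ifng differed by 0.35 in WT, and in STAP-2-/- colons by the bound of at least 4.93-fold given above.

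**Figure D2:**
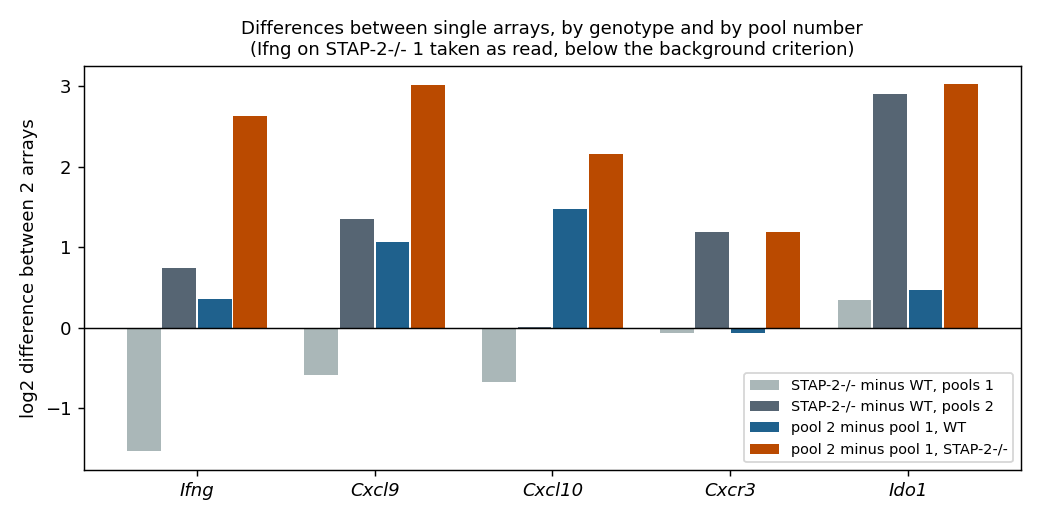
Log2 differences between single arrays for each gene (y axis; bars start at 0): STAP-2-/- minus WT in pools 1 and in pools 2, and pool 2 minus pool 1 in WT and in STAP-2-/- colons. The last bar is the tallest for Ifng, Cxcl9, Cxcl10 and Ido1 (for Cxcr3 it is 1.19, like the difference between genotypes in pools 2), and it is 3.03 for Ido1.

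Over all genes, no gene passed the adjusted threshold between pools either (limma, 0 of 15561, 0%), while 3943 genes (25.3%) had an unadjusted p below 0.05, and 10.6% of all genes were higher in pools 2 at that p. Cxcl9 and Cxcl10 were among the latter, the other 3 members were not. In 4 of the 5 members the arrays of pools 2 lay above those of pools 1 with no overlap, against 26.4% of all genes. The same 4 were also at least 2-fold apart, against 2.15% of all genes. The median difference between pools was 1.75 over the 5 members and -0.041 over all genes tested. Without STAP-2-/- 2 the difference of Ido1 was 0.30 and that of Cxcr3 -0.034, and without WT 2 the difference of Ido1 was 3.20 and that of Cxcr3 1.16. For Ifng it was 0.72 without STAP-2-/- 1, 2.26 without WT 1 and 0.57 with normexp background correction.

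Genes were also ranked by the difference between the pools of 1 genotype. Between the STAP-2-/- pools, 9 of the 15561 genes had a larger difference than Ido1, 10 than Cxcl9, 53 than Cxcl10 and 401 than Cxcr3. Between the WT pools 81 genes had a larger difference than Cxcl10 and 257 than Cxcl9, whereas 53.8% of genes lay above Cxcr3. All 5 members were highest on STAP-2-/- 2, against 26.4% of all genes, and 3 of the 5 (Cxcl9, Cxcr3 and Ido1) were at least 2-fold above each other array there, against 0.643%. On STAP-2-/- 1, 3 members (Ifng, Cxcl9 and Cxcl10) were at their lowest, against 30.0% of all genes.

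**Figure D3:**
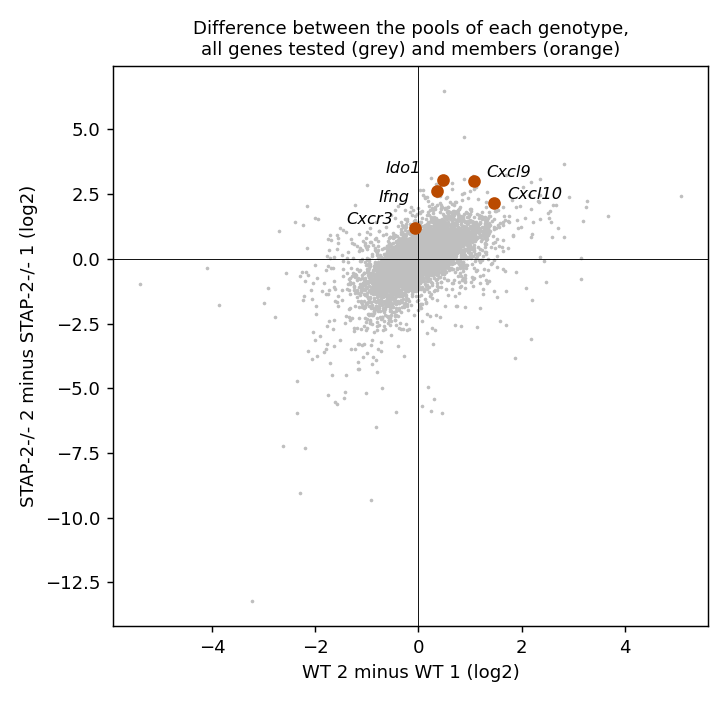
Difference between the pools of WT (x axis, log2 WT 2 minus WT 1) against that of STAP-2-/- (y axis, log2 STAP-2-/- 2 minus STAP-2-/- 1) for all 15561 genes tested, with the 5 members in orange. The members lie between 1.19 (Cxcr3) and 3.03 (Ido1) on the y axis, and on the x axis Cxcl10 and Cxcl9 lie to the right (1.47 and 1.07) and Cxcr3 near 0 (-0.066).

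The 7 tested neighbours of the chemokine genes on chromosome 5 differed less between pools than Cxcl9 and Cxcl10 did. Art3, an ADP-ribosyltransferase family gene that lies between Cxcl9 and Cxcl10, differed between pools by -0.12 (SE 0.16). Sdad1 and Naaa on the side of Cxcl9 differed by 0.41 and 0.18, and Nup54, of the nuclear pore, by 0.14. Scarb2, a lysosomal membrane protein gene, differed by 0.59 (SE 0.19), the largest value among these neighbours. None of them passed the adjusted threshold.

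**Figure D4:**
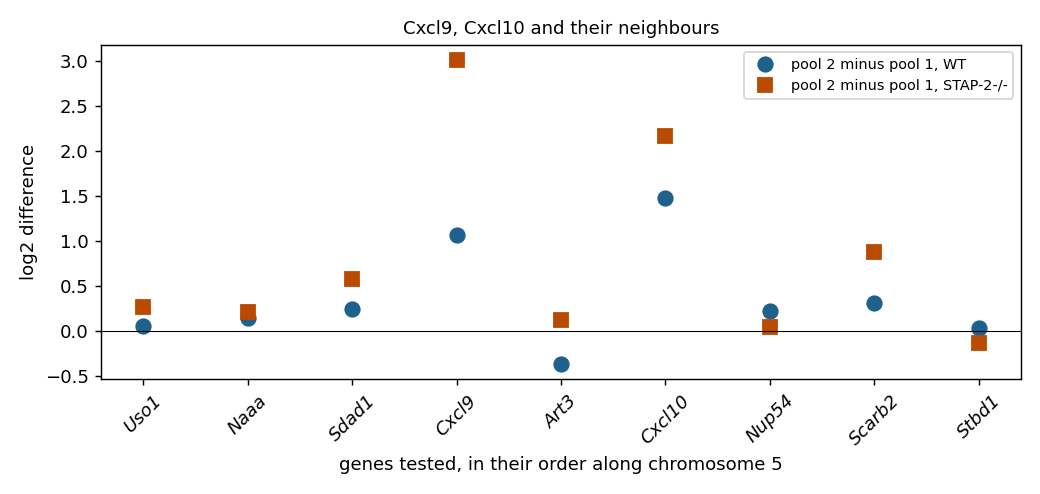
Difference between pool 2 and pool 1 in WT (circles) and in STAP-2-/- colons (squares), as log2, for Cxcl9, Cxcl10 and the tested genes next to them in their order along chromosome 5. Cxcl9 and Cxcl10 stand at 1.07 and 1.47 in WT and 3.01 and 2.17 in STAP-2-/- colons, and Scarb2 at 0.88 is the highest neighbour in STAP-2-/- colons.

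Genes with the most similar pattern were found by the root mean square difference of log2 levels over the 4 arrays. Each gene was centred on its own mean. The search covered 14468 genes well above background on all arrays, after members and clone, predicted and receptor-segment names were left out. With 4 arrays this measure describes shape only. Among the nearest to Cxcl9 were Ms4a18 (0.103) and the interferon-inducible GTPase Ifi47 (0.152). The nearest to Cxcl10 were Trim29 (0.104), Mal (0.113) and Ttyh1 (0.113). The nearest to Cxcr3 were the MHC class II gene H2-Eb1 (0.036), the T cell adaptor gene Lat (0.048) and Trim30d (0.052). The nearest to Ido1 were Gzmb, which encodes granzyme B of cytotoxic lymphocytes (0.106), and the interferon-induced genes Ifi44 (0.216) and Oas3 (0.227). Gzmb read -2.79 and -2.44 in WT and -2.27 and 0.63 in STAP-2-/- colons. Ifng was left out, being dim on 1 array.

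The rest of the pathway was read from lists chosen by function. No gene of any list passed the adjusted threshold in either comparison, so what follows are values, with the median over all genes being -0.0068 between genotypes and -0.041 between pools. Of all genes tested, 44.8% were higher in pools 2 and 48.3% higher in STAP-2-/- colons. The interferon-gamma receptor subunits Ifngr1 and Ifngr2 differed by -0.038 and 0.22 between genotypes, and by -0.16 and 0.020 between pools. The kinase genes Jak1 and Jak2 differed by -0.073 and -0.090 between genotypes and by -0.23 and -0.15 between pools. The median of the 10 genes of this list was -0.025 between genotypes and 0.034 between pools, with 7 of 10 higher in pools 2.

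Upstream of Ifng, 14 of 15 inducers were on the array and 11 were tested, of which 6 were higher and 5 lower in pools 2, with a median of 0.044. The T helper 1 transcription factor genes Tbx21 and Stat4 differed between pools by 0.85 (SE 0.39) and 0.92 (SE 0.13, limma adjusted p = 0.0915). The interleukin-12 receptor gene Il12rb1 differed by 0.68, being -0.046 between the WT pools and 1.415 between the STAP-2-/- pools. Il18, a cytokine gene of the epithelium that promotes interferon-gamma release, differed by -1.14 (SE 0.53). It read 4.01 and 3.62 in WT, 3.96 on STAP-2-/- 1 and 2.07 on STAP-2-/- 2, the lowest where Ifng was highest.

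Of 17 other interferon-gamma-induced genes tested, 16 were higher in pools 2 (median 0.57) and 13 higher in STAP-2-/- colons (median 0.47). The class II transactivator Ciita differed between pools by 0.47 and the checkpoint ligand Cd274 by 0.81, and between genotypes by 0.28 and 0.43. The GTPase gene Gbp2 and the peptide transporter gene Tap1 differed between genotypes by 0.93 (SE 0.36) and 0.88 (SE 0.29), and STAP-2-/- 2 was the highest array for both. Between pools Gbp2 and Tap1 differed by 0.55 and 0.094. Of the 4 genes lower in STAP-2-/- colons, Nos2 differed by -1.79 (SE 0.89). In 14 of the 17 STAP-2-/- 2 was the highest array. Without it the median between genotypes was -0.13 and that between pools 0.28.

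Other chemokines and receptors of T helper 1 and cytotoxic cells had the largest median difference between pools among the pathway lists, 1.23 over 9 genes tested, all 9 of them higher in pools 2. Ccl5, a chemokine gene of activated T cells, differed by 1.24 (SE 0.71). Cxcr6 and its ligand gene Cxcl16 differed by 0.33 and 0.30. For Cxcr6 the difference was -0.050 between the WT pools and 0.71 between the STAP-2-/- pools. Between genotypes the median was 0.11, with 5 of 9 higher. The median between pools was 0.31 without STAP-2-/- 2, and between genotypes it was then -0.45.

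Of 15 listed tryptophan and kynurenine genes 10 were tested. Of these, 4 were higher in STAP-2-/- colons (median -0.0039) and 7 in pools 2 (median 0.21). The list is wider than the steps downstream of Ido1, so its counts and medians do not describe those steps alone. It also holds Wars, Slc7a5, Slc3a2 and Tph1, all higher in pools 2. The kynurenine hydroxylase gene Kmo differed by -0.022 between genotypes and 0.29 between pools, and the formamidase gene Afmid by -0.0072 and -0.086. Haao and Qprt, of the branch to nicotinamide nucleotides, differed by -0.19 and -0.23 between genotypes and by 0.019 and 0.30 between pools. The aminotransferase genes Kyat1 and Kyat3 differed between pools by -1.94 (SE 0.33) and -0.38 (SE 0.20). For both of them the arrays of pools 2 lay below those of pools 1. Ido2, the paralog of Ido1, was not well above background on any array, like Aadat and Acmsd. Kynu and Tdo2 were well above background only in pools 2 and were not tested. For the aryl hydrocarbon receptor, to which kynurenine binds, and its targets the median between pools was 0.041 over 4 tested of 6. The targets Cyp1a1 and Cyp1b1 were not tested. Cyp1a1 was not well above background on any array, and Cyp1b1 only in pools 2. The receptor gene Ahr differed by -0.11 between pools, its repressor Ahrr by 0.044, Tiparp by 0.037 and Nqo1 by 0.41. For Nqo1 the difference was -0.044 between the WT pools and 0.86 between the STAP-2-/- pools.

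Among other interferons and their receptors 5 genes were tested and 1 of them was higher in pools 2 (median -0.14). Ifnar1 and Ifnar2, which encode the type I interferon receptor, differed between pools by -0.14 and 0.37. The lambda receptor gene Ifnlr1 differed by -0.34 and the lambda interferon gene Ifnl3 by -0.091. Ifnb1 and Ifna4 were not well above background on any array. Of 8 other T cell cytokines, Il22 was the 1 gene tested. It read -5.31 and -3.22 in WT and -5.38 and -6.50 in STAP-2-/- colons, lowest on the array where Ifng was highest. Every one of these values passed the background test, but that on STAP-2-/- 2 lay close to the lowest signal that did.

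Among markers of cells that make interferon-gamma or carry CXCR3, the summed levels were highest on STAP-2-/- 2, though not every single marker was. All 8 T cell markers were well above background on all arrays and higher in STAP-2-/- colons (median 0.84), 7 of them higher in pools 2 (median 0.77), and 6 were highest on STAP-2-/- 2. Their summed level, in multiples of the 75th percentile, was 2.09 to 2.22 in WT and 2.62 to 3.70 in STAP-2-/- colons. Of 7 natural killer and cytotoxic markers 5 were tested, 4 of them higher in STAP-2-/- colons (median 0.30) and 3 of them higher in pools 2 (median 0.92). Their summed level was 2.96 to 3.62 in WT and 4.19 to 9.38 in STAP-2-/- colons. The granzyme gene Gzma was 3.47-fold higher on STAP-2-/- 2 than on the next highest array and differed between pools by 0.92 (SE 0.96). Of the 5 tested, 3 (Klrd1, Gzma and Gzmb) were highest on STAP-2-/- 2. Gzma had the highest level of these markers on that array and weighed most in its sum. The sum therefore does not show that natural killer and cytotoxic cells were more numerous there. Nkg7 was highest on WT 1 and the perforin gene Prf1 on STAP-2-/- 1, and they differed between pools by -0.44 and -0.057. Ncr1, a defining natural killer cell gene, was not well above background on any array. Without STAP-2-/- 2 the T cell median was 0.26 between genotypes and 0.23 between pools, and the natural killer and cytotoxic median was -0.14 between pools. The part of these cells in the member values was not tested.

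Other cell types gave other patterns. The summed level of B cell and follicle markers was 0.74 to 1.84 in WT, 1.30 on STAP-2-/- 1 and 0.49 on STAP-2-/- 2, and Blk was not well above background on any array. Macrophage markers summed to 12.99 to 13.77 in WT and 13.91 to 14.03 in STAP-2-/- colons, with a median difference between pools of 0.062 over 7 genes. Of 5 dendritic cell markers tested, 4 were higher in pools 2 (median 0.38). The neutrophil genes S100a8 and S100a9 differed between pools by 2.67 and 3.76, with WT 2 the highest array for both, while Csf3r, the other neutrophil gene tested, differed by -0.30. Of 5 fibroblast markers 4 were higher in pools 2, 3 of them with no overlap (median 0.62), and all 5 were lower in STAP-2-/- colons (median -0.41). Endothelial, epithelial and smooth muscle markers differed between pools by medians of 0.13, 0.27 and 0.079.

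**Figure D5:**
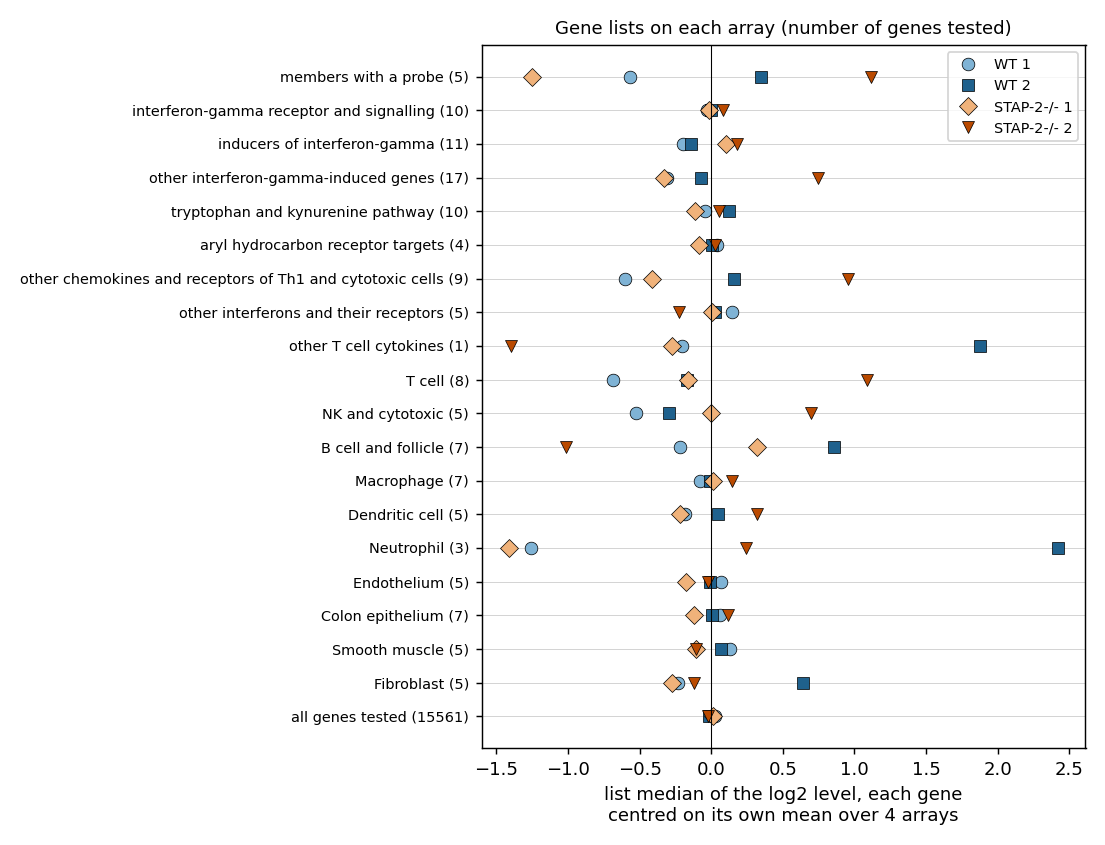
Median over each gene list of the log2 level, each gene centred on its own mean over the 4 arrays (x axis), with 1 symbol per array and the number of genes tested in brackets. For the members, the other interferon-gamma-induced genes, the other T helper 1 chemokines and the T cell markers, STAP-2-/- 2 lies furthest to the right (1.11, 0.74, 0.95 and 1.09), whereas for neutrophil markers WT 2 does (2.42) and for B cell markers STAP-2-/- 2 lies furthest to the left.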

How the data were processed

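Agilent mouse arrays of 4 RNA pools were read from the authors' deposited scanner files. Per the file headers these hold, for every spot, a processed signal intensity after background subtraction and spatial detrending, made with Agilent Feature Extraction 10.7.1.1 (per the submitters' processing notes). A value table that the authors deposited holds a linear ratio of the processed signal to a constant of each array, and served as an alternative only. Its 75th percentile is 1, its column medians are 0.090, 0.087, 0.091 and 0.084, and its values are not centred by gene; how the authors made it is not given in the sources used here.

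Values are log2 of the processed signal minus the 75th percentile over spots that are not controls. Outlier-flagged spots were set missing, spots of a probe averaged, and the brightest probe of a gene kept. Of 39429 probes, 27427 were named through a RefSeq table of GRCm38.p6, which differs from the build of the array's own design. The order of genes along chromosome 5 was taken from the same table. A gene was tested if both arrays of WT, or both of STAP-2-/-, were well above background (15561 genes, with all 5 measured members, Ifng through WT). The same filter served the pool comparison. Genes well above background only in pools 2, such as Kynu and Cyp1b1, were therefore not tested. No spot was saturated; the number of arrays limits the precision.

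Genotypes and pool numbers were each compared with limma 3.58.1 (lmFit, eBayes; R 4.3.3) on all 4 arrays, without covariates, with Benjamini-Hochberg adjustment over all genes at 0.05. The fit was tested on simulated data, drawn with genotype changes larger than those of the members and with no difference between pool numbers. That test does not bear on the values of the members. The members and lists were chosen with earlier results of these data known. Named genes are the members, the first 4 tested genes of each of 8 pathway lists in a fixed order, and the 3 genes most like each member, of which 1 gene is not reported here; genes named beyond these, such as Gzmb values, chromosomal neighbours and single markers, were chosen after their values were seen. Alternatives were other scalings, normexp correction (offset 50) on the median spot signal (the files hold no mean), the value table, no filter and a stricter filter on dim probes, keeping flagged spots, averaging a gene's probes, an intensity trend with robust fit, the replicate number as a block (for the pool comparison, genotype as the added term), and each array left out.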

Additional observations from a re-analysis of the deposited data

Results flagged for a closer look

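For Ifng, Cxcl9, Cxcl10 and Cxcr3 the difference between genotypes had opposite signs in the pools numbered 1 and the pools numbered 2. STAP-2-/- minus WT, on the log2 scale, was -1.54 in pools 1 and 0.738 in pools 2 for Ifng, with STAP-2-/- 1 taken as read although it was not well above background. For Cxcl9 the values were -0.589 and 1.35, for Cxcl10 -0.679 and 0.0133, and for Cxcr3 -0.0631 and 1.19. The Cxcl10 value in pools 2 and the Cxcr3 value in pools 1 are small beside the others, so their signs are uncertain. The difference between pools 1 and 2 was not tested, since each value rests on 1 array per genotype. Groups of 2 arrays are too small for a check of single outlying samples.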

How the results depend on the processing

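No member passed the adjusted threshold in either comparison under any of the 15 alternatives. Between genotypes the count of genes past it was 0, except 1, Stap2 (adjusted p = 0.00509, limma), with normexp background correction. Between pools it was 0, except 1, Six2, without WT 1. With 1 array left out, the genotype difference ran from -1.71 to 0.91 for Ifng, from -1.12 to 1.89 for Cxcl9, from -1.42 to 0.75 for Cxcl10, from -0.030 to 1.16 for Cxcr3 and from 0.11 to 3.14 for Ido1. It turned its sign for Ifng without STAP-2-/- 1 (0.91), for Cxcl9 without WT 1 (-0.15) or STAP-2-/- 2 (-1.12), for Cxcl10 without WT 2 (0.40) or STAP-2-/- 1 (0.75) and for Cxcr3 without STAP-2-/- 2 (-0.030). Between pools the ranges were 0.72 to 2.26 for Ifng, 1.37 to 2.72 for Cxcl9, 1.48 to 2.16 for Cxcl10, -0.034 to 1.16 for Cxcr3 and 0.30 to 3.20 for Ido1, and the sign turned for Cxcr3 without STAP-2-/- 2. Where an arm keeps 1 array, that array is assumed to vary like the others. Ifng could not be fitted when genes had to be above background on all arrays.

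With the replicate number as a block the count of genes past the threshold was 0 between genotypes, and 1040 genes had an unadjusted p below 0.05, against 325 without it and 143 to 830 with 1 array left out. Between pools, where the second term of the same model is genotype, that count was 3943, 3861 with genotype added and 1933 to 3523 with 1 array left out. The differences between pools of WT and of STAP-2-/- correlated by 0.596 over genes. Levels of WT 1 and STAP-2-/- 1 differed with an SD of 0.376 over genes (log2). For WT 2 and STAP-2-/- 2 that SD was 0.415. Within WT it was 0.42, and within STAP-2-/- colons 0.655. Arrays sharing a number were thus closer than arrays sharing a genotype, though 0.415 and 0.42 are nearly equal. The main fits did not pair samples by number, as there are 2 pairs only. Whether the numbers pair the samples was not tested. The block changed no genotype call, and left the genotype differences of the members as they were, with a limma adjusted p of 0.703 for Ido1. List medians and values of named list genes were recomputed under the same settings, a choice made after seeing the data.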
